A study of Caenorhabditis elegans with 2 samples.

Results

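Regions near genes for small nucleolar RNAs (snoRNAs) and small nuclear RNAs (snRNAs) were described in a ChIP-seq study of ALR-1, an aristaless-type homeodomain transcription factor, in Caenorhabditis elegans. A region belonged to the set when its summit, the start plus the peak offset of the pooled list of peaks and background, lay within 500 bp of a gene of either biotype in the WBcel235 annotation. The set held 178 of the 30000 regions of that list, or 0.593%. No measured value entered the choice, other than the presence of the region in the list. The animals were whole L1 larvae of mixed sex, strain OP362, with the unc-119(tm4063) allele and the wgIs362 transgene, which carries alr-1 fused to GFP and FLAG at its C-terminus. They were 6 hours old and had been starved after bleaching, and chromatin was precipitated with an antibody against GFP. There was 1 group of 2 biological replicates and no second condition, so no comparison between conditions could be made, and no untagged strain was analysed here. All animals were of 1 integrated line, so an effect of that insertion cannot be told apart from the factor itself. Read depth is unknown from the lists, and the intervals given take in counting error alone. The material was the whole animal, so a signal in few cells and a weaker signal in many cells cannot be told apart.

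snoRNAs guide the chemical modification of ribosomal and other RNAs. Those with box C and box D direct methylation of the ribose, and those with box H and box ACA direct conversion of uridine to pseudouridine. Many animal snoRNAs lie in introns of protein-coding genes and are released from the spliced intron, while others are transcribed from their own promoters. snRNAs form the core of the spliceosome. In nematodes the annotated class also includes the spliced leader RNAs (sls genes), which donate the short exon joined to many mRNAs by trans-splicing, and the SmY RNAs (smy genes), which associate with that reaction.

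The windows shown are those in which a summit of the pooled top 1000 fell in, or within 40 bp of, a snoRNA gene, together with the highest region of the whole set. They show where the summit stands relative to the small RNA. All are the plus strand of ce11, and capitals mark the bases of the annotated snoRNA gene. In the first 5 sequences the summit is base 61 of 121. They cover chrIII:12728261-12728381 (Y111B2A.36), chrIII:12368479-12368599 (Y49E10.36), chrIII:794328-794448 (B0412.6), chrIV:4447458-4447578 (R08C7.19) and chrII:10563038-10563158 (C06A1.9). The last covers chrIII:833285-833564, with the summit at base 21 of 280, and runs into K02F3.15. The genes Y49E10.36, R08C7.19 and C06A1.9 lie on the minus strand. TAATTA, the core that paired-class homeodomains bind, occurred in none of the 6 windows. Over the whole list 5.39% of regions had it within 50 bp of the summit, so its absence from 6 windows says little.
Y111B2A.36: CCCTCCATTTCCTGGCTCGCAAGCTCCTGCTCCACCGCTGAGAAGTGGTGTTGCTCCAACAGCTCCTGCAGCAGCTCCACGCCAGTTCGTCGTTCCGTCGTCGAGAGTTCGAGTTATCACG
Y49E10.36: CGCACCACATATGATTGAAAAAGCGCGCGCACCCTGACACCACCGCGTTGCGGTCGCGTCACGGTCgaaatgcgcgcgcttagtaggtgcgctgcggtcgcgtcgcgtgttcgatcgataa
B0412.6: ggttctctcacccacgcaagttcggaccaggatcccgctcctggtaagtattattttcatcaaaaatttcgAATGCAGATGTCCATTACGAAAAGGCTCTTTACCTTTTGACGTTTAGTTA
R08C7.19: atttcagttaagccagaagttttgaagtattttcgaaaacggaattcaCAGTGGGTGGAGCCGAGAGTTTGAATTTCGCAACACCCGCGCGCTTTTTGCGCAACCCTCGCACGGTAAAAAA
C06A1.9: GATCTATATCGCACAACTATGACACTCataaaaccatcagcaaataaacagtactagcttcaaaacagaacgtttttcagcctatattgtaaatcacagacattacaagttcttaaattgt
K02F3.15: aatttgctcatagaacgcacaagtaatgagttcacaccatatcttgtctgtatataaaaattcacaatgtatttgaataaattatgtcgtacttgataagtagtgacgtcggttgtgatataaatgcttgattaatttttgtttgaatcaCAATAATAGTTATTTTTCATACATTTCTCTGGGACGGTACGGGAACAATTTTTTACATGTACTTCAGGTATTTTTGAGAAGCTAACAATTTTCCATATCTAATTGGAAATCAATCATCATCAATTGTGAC

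The members were spread over the whole list, with a larger share of them than of all regions near its top. By the authors' signal value, which ranks regions within a list, the members reached from 152 (rank 5) down to 42.3, close to the lowest signal of the list (42.2). Their median rank was 11118 (95% binomial interval of the median 9721 to 13529), where the median of the whole list was 15000.5. Among the members, 20 of 178 were in the top 1000, or 11.2% (exact binomial interval 7.0 to 16.8), beside 3.33% of the whole list. In the IDR list, the authors' list of peaks that passed an irreproducible discovery rate threshold, there were 5 members, or 2.81% (0.918 to 6.43), beside 0.607% of the whole list. In the top 3000 there were 37 members, or 20.8%, beside 10% of the list. No test was made of these shares, since the design has 1 group, and they are given as descriptions. Some members share reads: 25 overlapped another member, and merging left 165 separate loci.

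**Figure D1:**
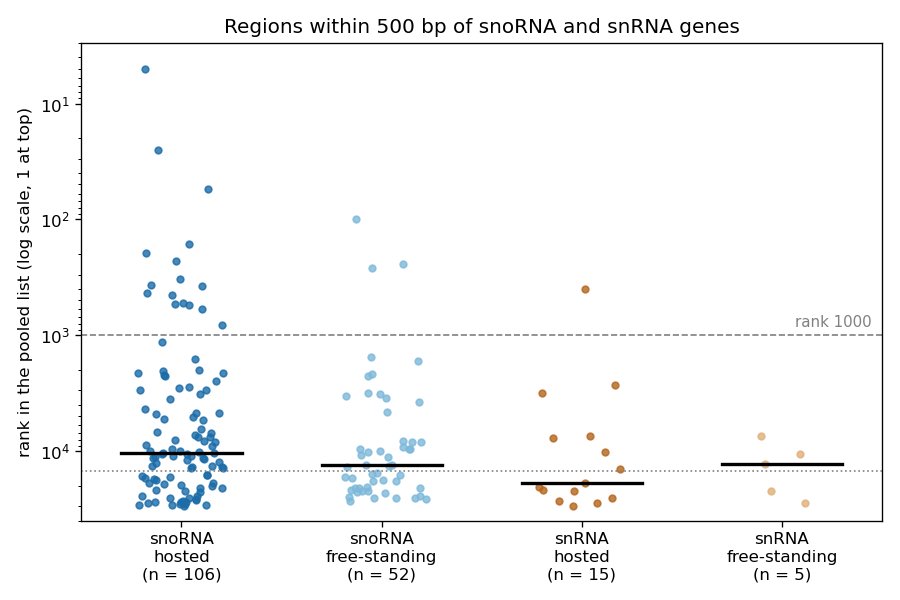
Rank in the pooled list (log axis, rank 1 at the top) of each of the 178 regions, split by the biotype of the nearest small RNA gene and by whether that gene lies inside a protein-coding gene. Black bars are group medians, the dashed line is rank 1000 and the dotted line is the median of the whole list; 16 hosted snoRNA regions, 3 free-standing snoRNA regions and 1 hosted snRNA region stand above rank 1000.

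Most members went with a small RNA gene inside a protein-coding host. A small RNA gene was called hosted when its whole span lay inside a protein-coding gene, and free-standing otherwise. By the nearest gene, 121 members were hosted and 57 free-standing. The top 1000 held 17 hosted members, or 14% (8.4 to 21.5), and 3 free-standing members, or 5.26% (1.1 to 14.6), and these intervals overlap. The median rank was 10419 for hosted and 13205 for free-standing members. Of the hosted members, 99 had the host on the same strand and 22 on the opposite strand. The same-strand members had 16 in the top 1000 (16.2%, 9.53 to 24.9) and the opposite-strand members had 1 (4.55%, 0.115 to 22.8). Hosted members were richer in G and C within 100 bp of the summit, at 39.4% ± 8.02, against 34.3% ± 7.04 in free-standing members (SD over 121 and 57 regions) and 35.7% ± 7.73 over the whole list. The part of base composition in the rank difference was not tested.

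The highest region of the set lay in an intron of zip-2, a bZIP transcription factor gene on chromosome III. Its pooled signal was 152 (rank 5), and in the replicates' own lists its signal was 74.1 in replicate 1 (rank 17) and 81.1 in replicate 2 (rank 15). The summit at 833305 lay 130 bp before the start of K02F3.15 (833435 to 833609, plus strand), in the unmarked left part of the long sequence above. The summit of replicate 1 was 45 bp from the pooled one and that of replicate 2 was 11 bp from it. It was the only member whose replicate ranks were both within the top 100. The other 2 regions of the pooled list inside zip-2 were much lower, at ranks 2446 and 3895.

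The second member by rank lay in ssl-1, which encodes a SWI2/SNF2-family chromatin remodeller. Its summit at 12728321 on chromosome III fell inside the snoRNA gene Y111B2A.36 (12728162 to 12728402), in a stretch also annotated as a coding exon of ssl-1. The pooled signal was 135 (rank 25), with 77.8 in replicate 1 (rank 11) and 56.6 in replicate 2 (rank 377). The GC content within 100 bp of this summit was 58.7%. The gene spans 30156 bp and held 3 further top 1000 summits, at ranks 149, 284 and 460, which lay at least 1402 bp from any snoRNA or snRNA gene. A second member in ssl-1, with its summit 119 bp downstream of Y111B2A.36 (rank 1995), matched the same replicate 1 region as the first.

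The other 3 members in the IDR list were near H06I04.8, T23G11.12 and Y43F4B.11. The H06I04.8 region (chromosome III, summit 3069208, rank 55) lay in an untranslated exon at the 3′ end of ubl-1, which encodes a ubiquitin-like protein fused to a ribosomal protein. Its signal was 55.5 in replicate 1 (rank 233) and 64.7 in replicate 2 (rank 117). The T23G11.12 region (chromosome I, summit 7700802, rank 100) was the highest of the free-standing members, 375 bp upstream of the snoRNA gene and in a coding exon. Its signal was 70.7 in replicate 1 (rank 23) and 51.5 in replicate 2 (rank 772). The Y43F4B.11 region (chromosome III, summit 13303039, rank 164) lay in a coding exon of the kinesin gene klp-19, with 61.8 in replicate 1 (rank 91) and 54.7 in replicate 2 (rank 487). Both ubl-1 and klp-19 hold a second snoRNA gene with a member, and those regions stood far lower, at ranks 20771 (H06I04.9) and 16039 (Y43F4B.12).

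The hosts of the next regions included genes for a histone, a chaperone and translation proteins. The region of rank 194 lay in an intron of iff-2, a translation factor eIF5A gene, 279 bp upstream of F54C9.12, and ranked 245 in replicate 1 and 2256 in replicate 2. That of rank 231 lay in an intron of his-72, a histone H3.3 gene. Its summit stood 5 bp inside the 5′ end of Y49E10.36, and it ranked 87 in replicate 1 and 1930 in replicate 2. In hsp-1, a cytosolic Hsp70 gene, 2 members flanked F26D10.24, at ranks 328 and 547. In the ribosomal protein gene rps-29, the region of rank 373 stood 11 bp upstream of B0412.6, and was close in both replicates, at 750 in replicate 1 and 648 in replicate 2. The region of rank 591, in the elongation factor gene eef-1G, ranked 1624 in replicate 1 and 285 in replicate 2. That replicate 2 summit was 107 bp away, and it also matched another eef-1G member (rank 9155) from 111 bp. In rpl-7, a gene of the large ribosomal subunit, the region 207 bp upstream of F53G12.12 had pooled rank 814, with 3756 in replicate 1 and 718 in replicate 2.

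Several high regions ranked much higher in 1 replicate than in the other, or had a summit within 200 bp in 1 replicate alone. The R08C7.19 region, with its summit inside the snoRNA gene in an intron of chat-1, ranked 379 in the pooled list and 90 in replicate 2 but had no replicate 1 summit within 200 bp. A second member in chat-1, 86 bp upstream of R08C7.19, ranked 1607 in the pooled list and was even between the replicates, at 1020 in replicate 1 and 1018 in replicate 2. The strongest chat-1 region was in neither place: it lay 762 bp from R08C7.19, at rank 23. Near F28D1.13, a snoRNA gene inside the ribosomal protein gene rps-23, the replicates marked different summits. That at 12390258 (rank 528), outside the coding gene, matched rank 1514 of replicate 1 and nothing in replicate 2, and that at 12390519 (rank 1146) matched rank 78 of replicate 2 and nothing in replicate 1. The C06A1.9 region in cdc-48.1, a gene for a p97-type AAA ATPase, had rank 433, with rank 2002 in replicate 1 and no match in replicate 2. The F32B4.12 region, in a coding exon where phm-2 and F32B4.5 overlap, had rank 449, with 6383 in replicate 1 and 94 in replicate 2. Members of the top 1000 also stood near C36E8.11 (rank 245) and F17C11.24 (rank 265), both free-standing, near Y37E3.20 in pcyt-2.1 (rank 541), and near the snRNA gene sup-6 (rank 403), described with the snRNA genes.

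Over all members, 86 of 178 had a summit within 200 bp in both replicate lists, or 48.3% (40.8 to 55.9), beside 43.5% of the whole list. A further 45 were matched in replicate 1 only, 38 in replicate 2 only and 9 in neither. The matched regions were in the top 1000 of both replicates for 6 members, or 3.37% (1.25 to 7.19), beside 0.64% of the whole list. These were the regions of K02F3.15, Y111B2A.36, H06I04.8, T23G11.12, Y43F4B.11 and B0412.6. Of the 20 members in the pooled top 1000, those 6 were in the top 1000 of both replicates, 5 of replicate 1 only, 6 of replicate 2 only and 3 of neither. Since the pooled list contains both replicates, its top 1000 draws on either one. Spearman's rho of the replicate ranks was 0.452 over the 86 matched members and 0.203 over 13046 matched regions of the whole list, given as a description across regions, some of which overlap. Choosing members in each replicate's own list gave like shares. In replicate 1, 18 of 176 regions were in the top 1000 (10.2%, 6.17 to 15.7), and in replicate 2, 19 of 180 (10.6%, 6.48 to 16), with a list share of 3.33% in each case by construction.

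**Figure D2:**
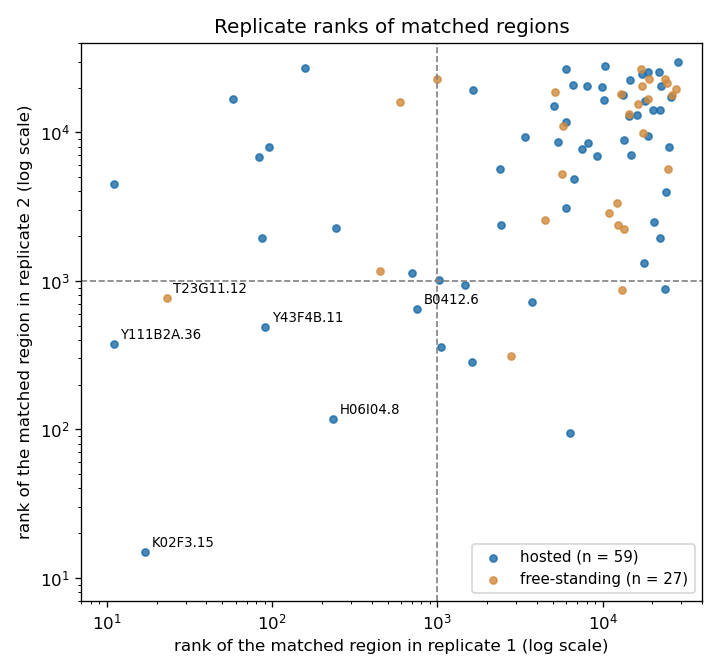
Rank of the matched region in replicate 1 and in replicate 2 (both axes log) for the 86 members with a summit within 200 bp in both lists, 59 hosted and 27 free-standing. Dashed lines mark rank 1000; the 6 named regions lie in the top 1000 of both replicates, with K02F3.15 at rank 17 in replicate 1 and 15 in replicate 2.

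Within the set, the share in the top 1000 showed no steady trend with distance from the small RNA gene. By side of the gene, 81 summits lay upstream, 25 inside and 72 downstream, and the top 1000 held 12.3% of those upstream, 12.0% of those inside and 9.72% of those downstream. The median distance to the gene was 237.5 bp over all members and 289.5 bp over those in the top 1000. Of the 130 regions just beyond the limit, from 501 to 1000 bp, 16 were in the top 1000, or 12.3% (7.2 to 19.2), a share like that of the members. It was 4.24% (2.21 to 7.29) from 1001 to 2000 bp and 5.86% (3.39 to 9.34) from 2001 to 3000 bp. Nearest to the limit, the member of T23G5.7 at 494 bp had rank 10274, and the region of T19C4.11 at 506 bp, outside the set, had rank 16626.

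**Figure D3:**
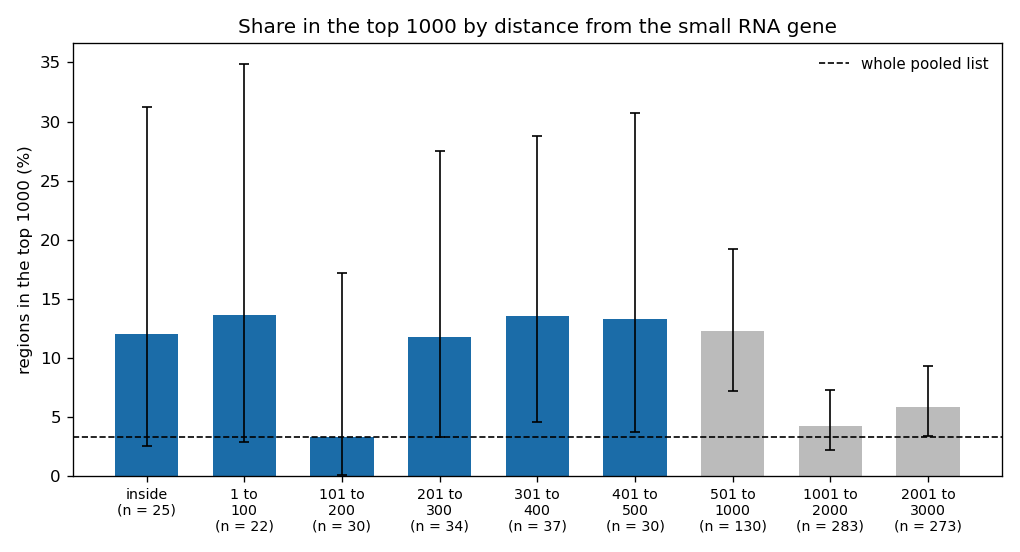
Share of regions in the top 1000 of the pooled list (y axis, %) by distance in bp of the summit from the nearest snoRNA or snRNA gene (x axis), with exact 95% binomial intervals. Blue bars are members, grey bars are regions beyond 500 bp and the dashed line is the whole list at 3.33%; the share lies between 11.8% and 13.6% in the bands out to 1000 bp, except at 101 to 200 bp, where it is 3.33%.

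Other regions of the same hosts stood between the members and the whole list. Of the members, 118 had their summit inside a host, and 16 of those were in the top 1000, or 13.6% (7.95 to 21.1). The other 618 regions inside hosts of snoRNA or snRNA genes had 40 in the top 1000, or 6.47% (4.66 to 8.71). Within the hosts of member genes alone, the other 217 regions had 18, or 8.29% (4.99 to 12.8). The intervals overlap. Of 97 hosts with a member, 32 held no other region, in 21 the best member ranked above the best other region, and in 44 it ranked below. Many hosts held more other regions than members, as jac-1 with 1 member and 16 others. The best of several tends to rank higher, so these counts do not compare members with other regions evenly. Of the 17 hosts with a member in the top 1000, 2 had a higher other region, chat-1 and rpl-7; since these hosts were picked by the member's rank, nothing is read from that count. Regions near other short non-coding genes, chosen by the same 500 bp rule, had lower point values. Of 177 regions near tRNA genes 11 were in the top 1000 (6.21%, 3.14 to 10.8), and of 82 near microRNA genes 4 were (4.88%, 1.34 to 12.0), and 2 of those 82 regions were also members. Both intervals overlap that of the members.

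**Figure D4:**
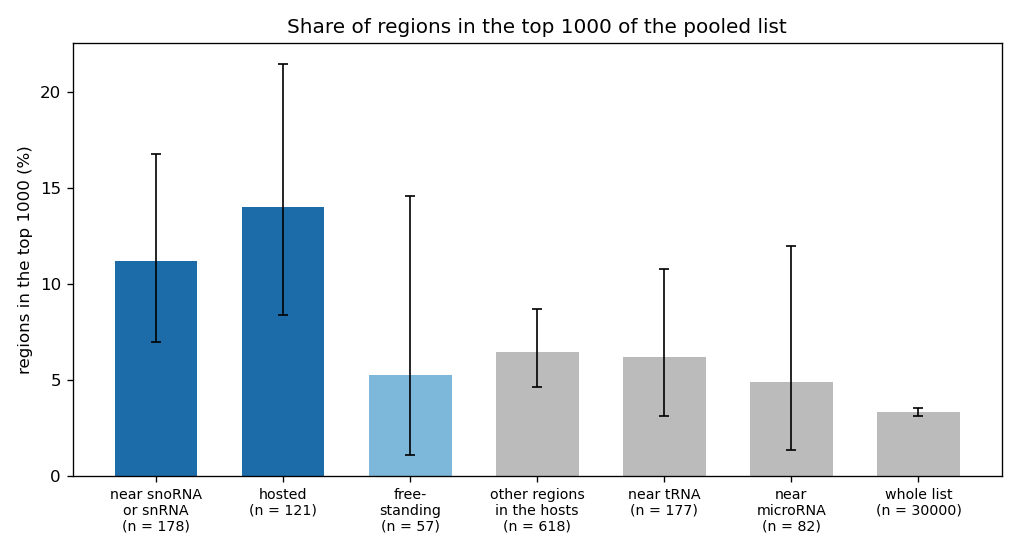
Share of regions in the top 1000 of the pooled list (y axis, %) for the members, their hosted and free-standing parts, other regions inside the hosts, regions near tRNA and microRNA genes and the whole list. Error bars are exact 95% binomial intervals; the members stand at 11.2% and the whole list at 3.33%.

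The members were also set beside other regions in the same kind of sequence. Coding exons held 72 member summits (40.4%), introns 56 (31.5%), untranslated exons 8 and sequence outside coding genes 42 (23.6%), while the 29822 other regions had 31.7% in coding exons and 31.4% in introns. In introns 14.3% of members were in the top 1000 (6.38 to 26.2), against 2.69% of other intronic regions (2.38 to 3.04). Most of these 8 intronic members lay near the start of a coding gene. Those in rpl-7, rps-29, chat-1, cdc-48.1, iff-2, zip-2 and his-72 stood 47 to 511 bp after the nearest 5′ end of such a gene. The one in pcyt-2.1 stood 5716 bp after it. Other intronic regions were not matched on this distance, and its part in the difference was not tested. In coding exons the shares were 11.1% of members (4.92 to 20.7) and 5.24% of other regions (4.8 to 5.71), and outside coding genes 7.14% (1.5 to 19.5) and 2.14% (1.86 to 2.45). Split by GC content, the pattern was uneven. Below 35% GC, 9 of 65 members were in the top 1000 (13.8%, 6.53 to 24.7), against 1.99% of other regions. From 35 to 45% GC the values were alike, 3 of 80 members (3.75%, 0.78 to 10.6) against 3.74%. Above 45% GC, 8 of 33 members were (24.2%, 11.1 to 42.3), against 7.06%. By chromosome, III had the most members in the top 1000, 7 of 30 (23.3%, 9.93 to 42.3), against 4.83% of the other regions there, which was also the highest share of other regions on any chromosome. It held 4 of the 5 members in the IDR list, and 48 of the 177 other regions in that list. Of 12 members on X, 0 were in the top 1000, where the exact interval reaches 26.5%, against 1.95% of other regions on X. TAATTA lay within 100 bp of the summit in 19 members, or 10.7% (6.55 to 16.2), and in 10.4% of all regions of the list, searched as its own reverse complement. Of the 20 members in the top 1000, 2 had it, those of H06I04.8 and Y43F4B.11.

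Counted by gene, 165 of the 475 annotated snoRNA and snRNA genes had a region within 500 bp, or 34.7% (30.5 to 39.2). As a background, 27.5% of the bases of the 6 nuclear chromosomes lay within 500 bp of a pooled summit, a share that a gene, having some length, would exceed slightly. For snoRNA genes it was 145 of 346 (41.9%, 36.7 to 47.3) and for snRNA genes 20 of 129 (15.5%, 9.73 to 22.9), so the interval of the first lay above that background and that of the second below it. Among other short genes it was 172 of 612 tRNA genes (28.1%, 24.6 to 31.8) and 95 of 261 microRNA genes (36.4%, 30.6 to 42.6), and the interval of the microRNA genes overlaps that of the snoRNA genes. Hosted snoRNA genes had a region in 98 of 216 cases (45.4%, 38.6 to 52.3) and free-standing ones in 47 of 130 (36.2%, 27.9 to 45). The best region was in the top 1000 for 18 hosted and 3 free-standing snoRNA genes. Of all 279 hosted genes, 225 had no base in an exon of the host and were thus intronic. Ribosomal protein genes hosted 19 of the small RNA genes, of which 12 had a region (63.2%, 38.4 to 83.7), against 101 of the 260 hosted by other genes (38.8%, 32.9 to 45.1). These intervals count each small RNA gene as separate, but some share a host or a region. In rps-29, 1 member region was in reach of 2 genes, so the intervals may be too narrow. Of the 237 hosts, 13 were ribosomal protein genes by name (5.49%), as were 9 of the 97 hosts of member genes (9.28%), while such genes were 0.39% of all protein-coding genes.

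**Figure D5:**
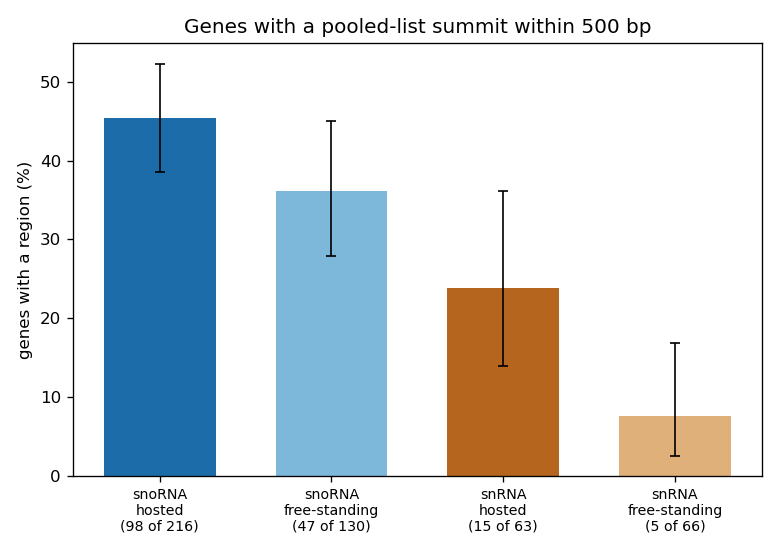
Share of annotated genes with a pooled-list summit within 500 bp (y axis, %), for snoRNA and snRNA genes inside and outside protein-coding hosts. Error bars are exact 95% binomial intervals; the counts under the bars go from 98 of 216 hosted snoRNA genes to 5 of 66 free-standing snRNA genes.

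Of the 20 members nearest an snRNA gene, 1 was in the top 1000 (5.0%, 0.127 to 24.9). The region near sup-6 (chromosome II, summit 12945401) ranked 403, 434 bp upstream of the gene and in a coding exon of its host F58G1.7. Its signal was 62.7 in replicate 1 (rank 83) and 36.2 in replicate 2 (rank 6776). sup-6 is known as a U1 snRNA gene in which mutations suppress splice-site defects. It has 165 bases and belongs to a group of 13 genes joined by at least 90% identity, and no other gene of that group had a region within 500 bp. The next snRNA regions were near F54D8.7 (rank 2725) and C53D6.12 (rank 3152), the second at 1467 in replicate 1 and 937 in replicate 2. That replicate 1 summit was 186 bp away, and it also matched another C53D6.12 member (rank 7438) from 21 bp. Of 18 sls-2 genes 5 had a region, with a best rank of 7400 (sls-2.17), and of 12 sls-1 genes 0 had one, where the exact interval reaches 26.5%. Of 12 smy genes 4 had a region, the best at rank 10759 (smy-3, which the annotation lists as a snoRNA). Near-identical copies were common among snRNA genes (96 of 129) and rare among snoRNA genes (11 of 346). An snRNA gene with such a copy had a region in 12 of 96 cases (12.5%, 6.63 to 20.8) and one without in 8 of 33 (24.2%, 11.1 to 42.3), and how reads from copies were placed is not given in the sources used here. The part of that placement in the low count was not tested.

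Genes for proteins that make or carry these RNAs were also looked up, within 1500 bp before and 500 bp after the 5′ end. Of the names looked up, nola-1, snpc-1.4, snpc-1.5, ints-10 and ints-12 matched no symbol of the annotation and were not analysed here, so the lists are not complete. Of the 32 genes found, 24 had a region in the window (75%), beside 49.7% of all protein-coding genes, and 7 had one in the top 1000 (21.9%), beside 3.08% of all protein-coding genes. Among the core proteins of box C/D particles, all 4 had a region. The highest was at fib-1, the fibrillarin methyltransferase gene, at rank 303, with 573 in replicate 1 and 811 in replicate 2. Of the 3 genes found for box H/ACA proteins, 2 had a region and 0 were in the top 1000, the best being dkc-1, the dyskerin pseudouridine synthase gene, at rank 3194. Of the 7 Sm protein genes, whose products form a ring on spliceosomal snRNAs, 2 were in the top 1000. These were snr-7 at rank 46 (18 in replicate 1, 680 in replicate 2) and snr-2 at rank 116 (66 in replicate 1, 386 in replicate 2). Of the 11 genes found for Integrator, the complex that cleaves snRNA 3′ ends, 4 were in the top 1000. ints-11, the catalytic subunit gene, stood at rank 267 and was close in both replicates, at 293 in replicate 1 and 472 in replicate 2, whereas ints-4 (rank 208) stood at 51 in replicate 1 and 13640 in replicate 2. ints-8 (rank 504) stood at 373 in replicate 1 and 6068 in replicate 2, and ints-2 (rank 679) at 8998 in replicate 1 and 10387 in replicate 2. Of the 7 genes found for SNAPc, the complex that binds snRNA promoters, 5 had a region and 0 were in the top 1000, with a best rank of 4341 at snpc-1.3.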

How the data were processed

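The deposited files are lists of regions. Per the text notes that the authors deposited beside each sample, a replicate's list was derived from its alignments and a control file, the pooled list from the alignments of both, and the IDR list from these lists. The signal value in column 7 is the one the authors deposited, relative to the control, and here it served to order regions inside each list. Coordinates are on ce11, which the labels give as the assembly. The sources used here name no aligner, peak caller or IDR threshold. Region widths were fixed at 364 bp in the pooled, 344 bp in the replicate 1 and 384 bp in the replicate 2 list, so the summit is the midpoint, and each list held 30000 regions, so absence does not mean no signal.

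Genes came from Ensembl release 115 (WBcel235, the same assembly), and sequences from the RefSeq genome of that assembly. All regions ended within its chromosomes. Each member went with its nearest small RNA gene. Replicate summits were matched to the nearest within 200 bp. Shares carry exact Clopper-Pearson 95% intervals. GC and TAATTA were read within 100 bp of the summit. Near-identical genes had at least 90% identity by edit distance. The members, lists and named items were chosen with earlier results of these data known. Named were the IDR members, the 20 highest members, the best region of each named snRNA family and host class, and hosts with at least 2 member genes (by nearest gene) and a best region in the top 1000. Other named genes were chosen after their values were seen. The comparisons with other host regions, distance bands, GC bins, copies, tRNA and microRNA genes and genome bases were added after seeing the data. Python 3.11.15, numpy 2.4.6, pandas 2.3.3, scipy 1.17.1 and matplotlib 3.10.9 were used, and the matching was tested on simulated data.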

Additional observations from a re-analysis of the deposited data

How the results depend on the processing

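With a distance of 250 bp, 1000 bp or a summit inside the gene, the set held 90, 308 or 25 regions, and 17.9%, 48.6% or 5.26% of genes had one, by construction of the limit. In those sets the share in the top 1000 was 8.89%, 11.7% and 12.0%, and in the IDR list 2.22%, 3.25% and 4.0%, each within the interval of the 500 bp set. The replicate lists alone gave sets of 176 to 180 regions and top 1000 shares of 10.2% to 10.6%, with median ranks of 13559 to 14196.5, nearer the middle of the list than in the pooled list. The cause was not tested. With the top 500 the share was 8.43%, beside 1.67% of the list, and with the top 3000 it was 20.8%. In the top 3000 of both replicates the share of members was 8.99%. Matching summits within 100 bp or 500 bp gave 38.8% or 59.0% of members matched in both replicates, and the share in the top 1000 of both was 3.37% either way. Whole-list shares at these replicate settings were not worked out, so these values are not read against the list. Hosted members numbered 99 with hosts on the same strand only and 125 with hosts of any other biotype. TAATTA was in 6.74% of members within 50 bp, beside 5.39% of the list, and in 12.9% over the whole region, beside 17.3%, so its direction relative to the list depended on the window. Counting any rank in the window, 75% of the protein genes had a region. With 20 members in the top 1000, splits of the set rest on few regions. No paired analysis was possible because there was 1 group.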

Other observations

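nol-56, which encodes a core protein of box C/D particles, is itself a host: it holds 4 snoRNA genes, of which 3 had a region within 500 bp. These and the other genes of this paragraph were chosen after their values were seen. The region 341 bp downstream of K07C5.11 had pooled rank 2237, with 96 in replicate 1 and 7980 in replicate 2. A second region near K07C5.11 had rank 29024 and matched the same replicate 2 summit, from 42 bp where the first was 160 bp away. A region inside K07C5.12 had rank 18953. The ribosomal protein gene rpl-15 likewise had regions at both of its snoRNA genes, at ranks 2111 (K11H12.13) and 6978 (K11H12.12). The first of these stood at 1636 in replicate 1 and 19155 in replicate 2, and the second at 22245 in replicate 1 and 1934 in replicate 2. In rpl-6, the region 197 bp downstream of R151.13 had rank 2472, with 23744 in replicate 1 and 876 in replicate 2. The K08E3.11 region in cyk-4 had pooled rank 2137, with 158 in replicate 1 and 26999 in replicate 2.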
